A study of Mus musculus with 12 samples.

Results

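The collagen genes described here are those whose symbol has the form Col, a number, the letter a and a number. The platform annotation assigned 58 of the 22690 probe sets on the array to 36 such genes, out of 12394 genes with a probe set of a single symbol. A probe set is a group of short probes against the same transcript. Of the 36 genes, 24 had at least 1 probe set above the filter on low signal and were tested.

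Collagens are extracellular proteins built of chains wound into a triple helix. Fibrillar collagens assemble into the cross-banded fibrils of connective tissue, basement membrane collagens into sheets, and network-forming collagens into lattices. FACIT collagens, whose helices are interrupted, lie on the surface of fibrils, and collagen VI forms beaded filaments between fibrils and cells. Fibroblasts are the main makers of the fibrillar types, and secretion of a chain depends on a set of modifying enzymes in the endoplasmic reticulum.

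The cells were primary mouse embryonic fibroblasts (MEFs), cells of embryonic connective tissue that were grown from embryos of day 13.5 and taken to passage 2. The 4 groups were Rb null cells exposed to 16 µM cisplatin for 24 h, wildtype cells exposed to the same treatment, untreated Rb null cells and untreated wildtype cells. Rb null cells lack the retinoblastoma gene Rb1, a restraint on entry into S phase, and cisplatin is a platinum compound that crosslinks DNA. Each group was 1 RNA sample hybridized to 3 arrays, so that p-values may cover technical spread alone. The number of embryos behind each RNA sample and the strain are not given in the sources used here. Signals are on the linear scale of the MAS5 software. They are given as mean ± SD with n = 3 hybridizations, changes as log2 estimate ± standard error from limma, and p-values are adjusted by the method of Benjamini and Hochberg over all 13575 tested probe sets of a comparison. A gene was called, and is said to have risen or fallen, where the adjusted p lay under 0.05 and the change was at least 1.5-fold. Levels are compared between groups and never between probe sets.

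Signals on arrays of the same group correlated at 0.981 to 0.992, and on arrays of different groups at 0.806 to 0.952. The Rb1 probe set read 89.6 ± 14.4 in cisplatin-treated Rb null, 383 ± 60.1 in cisplatin-treated wildtype, 94.0 ± 9.99 in untreated Rb null and 459.7 ± 35.4 in untreated wildtype cells. Sex-linked transcripts set the untreated wildtype arrays apart: Y-linked Eif2s3y averaged 6.63, 1.27, 1.43 and 478 in the same order of groups. Every comparison that uses the untreated wildtype cells therefore also compares RNA of different sex-linked expression, and this cannot be told apart from genotype or treatment. The fibroblast markers Vim (group means of 15701 to 16586), Fn1 and Sparc lay above the filter in all groups. Because RNA was taken from whole cultures, fewer cells of a type and less RNA per cell cannot be told apart.

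Most collagen genes fell with cisplatin, in both genotypes. In Rb null cells 17 of 24 fell and 1 rose, where 20.3% and 16.6% of all 7945 tested genes did so. In wildtype cells 16 fell and 1 rose, where 12.7% and 14.8% of all tested genes did so. The median change over the 24 genes was -1.73 in Rb null and -1.07 in wildtype cells on the log2 scale, against -0.0171 and 0.0565 over all tested genes. The only tested gene that rose in either genotype was Col10a1. Of the genes that fell, 13 were common to both genotypes, which is 76.5% of the Rb null list and 81.2% of the wildtype list. Over all tested genes 755 fell in both, which is 46.7% of the Rb null list and 74.8% of the wildtype list, so that the share of the wildtype list was near that of all genes. Both lists count changes against separate untreated groups.

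Between genotypes the collagen genes called after cisplatin were mostly lower in Rb null cells, and those called without it mostly higher. Among untreated cells 5 of 24 genes were called higher in Rb null cells and 2 lower, against 8.07% and 5.08% of all tested genes, with a median of -0.16. These counts rest on the 1.5-fold minimum: 15 of 24 had an adjusted p under 0.05, and with no minimum 10 were lower. Without untreated wildtype replicate 2, 5 were lower at the 1.5-fold minimum. After cisplatin 3 were higher in Rb null cells and 15 lower, against 9.67% and 13.3% of all tested genes, with a median of -0.75. The test of the difference between the cisplatin responses, Rb null minus wildtype, called 3 genes higher and 10 lower, against 8.7% and 15% of all tested genes. Group means were lowest in cisplatin-treated Rb null cells for 17 of the 24 genes, in cisplatin-treated wildtype cells for 6 and in untreated wildtype cells for 1. They were highest in untreated wildtype cells for 16 and in untreated Rb null cells for 6. The order of group means was not counted over all tested genes, so these counts have no background to stand against. Centring each array on its median signal moved the median of all genes by 0.15 in the Rb null response and by 0.10 in the difference of responses, and reversed no collagen call.

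**Figure D1:**
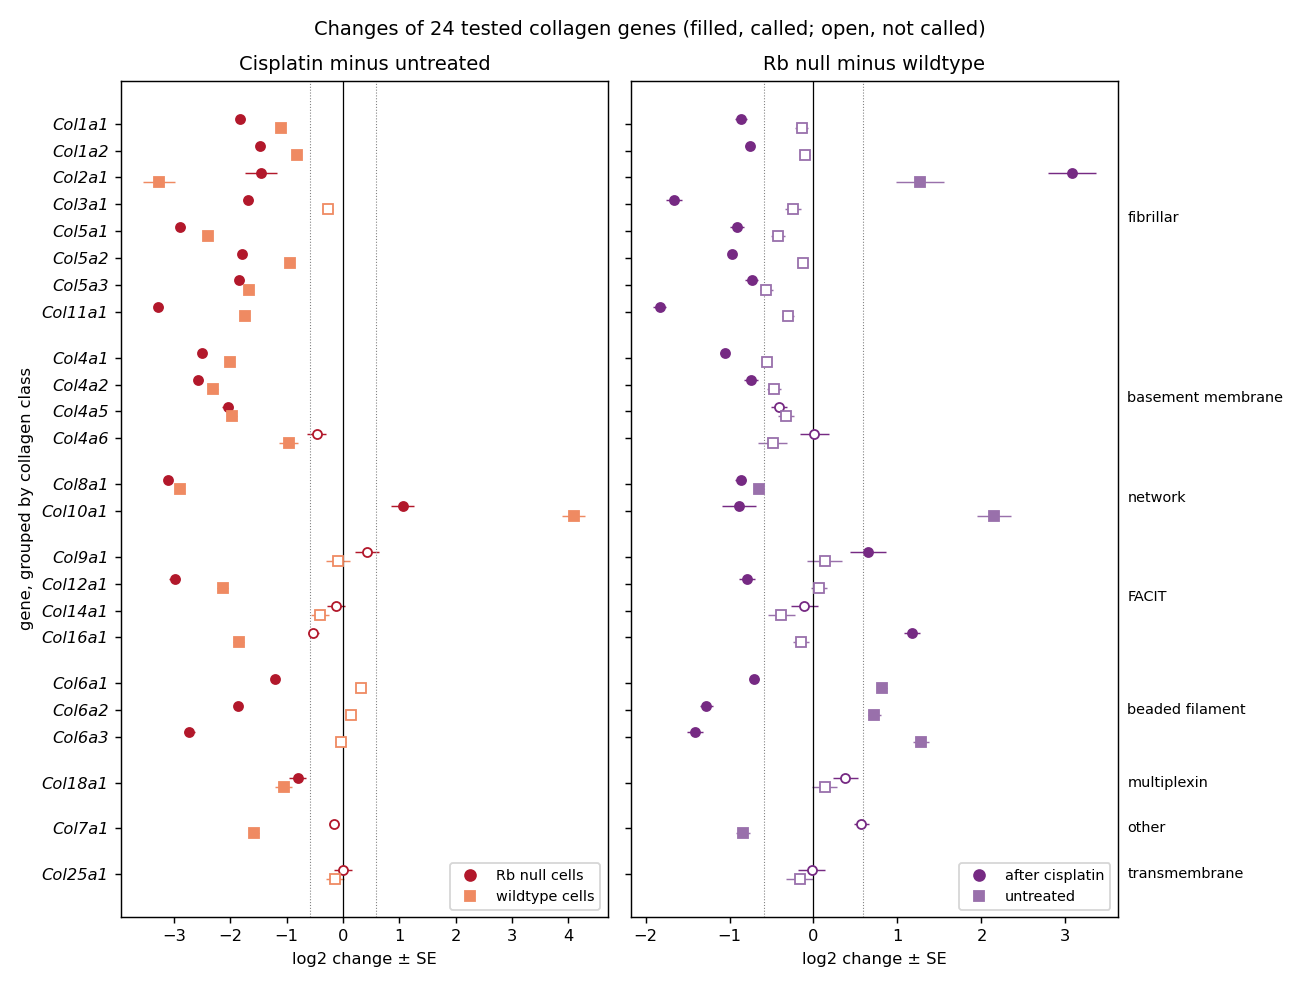
Log2 changes (x axis, ± SE of limma, n = 3 hybridizations per group) of the 24 tested collagen genes (y axis, by class) for cisplatin minus untreated in Rb null and wildtype cells (left) and for Rb null minus wildtype after cisplatin and untreated (right). Filled symbols mark called genes, open symbols genes not called, and dotted lines a change of 1.5-fold; most genes lie left of 0 on the left, Col10a1 lies to the right for both genotypes, and the collagen VI genes lie on opposite sides of 0 on the right.

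The fibrillar class had 9 genes on the array, of which 8 were tested; Col11a2 lay below the filter, with group means of 62.7 to 94.9. All 8 fell with cisplatin in Rb null cells (median -1.80) and 7 of 8 in wildtype cells (median -1.38). After cisplatin 7 of the 8 were lower and 1 was higher in Rb null cells, whereas among untreated cells 1 was higher and 0 were lower at the 1.5-fold minimum, with 6 of 8 at an unadjusted p under 0.05 in limma.

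Col1a1 and Col1a2 encode the chains of collagen I, the main fibril protein of skin, bone and tendon. Col1a1 read 2776, 2536 and 2661 in cisplatin-treated Rb null cells, 4340.4, 4914 and 5313 in cisplatin-treated wildtype cells, 8685, 10002 and 9546 in untreated Rb null cells and 11073, 10136 and 9880.4 in untreated wildtype cells. The untreated genotypes overlapped, both treated groups lay below them, and the treated Rb null arrays lay below the treated wildtype arrays. The cisplatin change of Col1a1 was -1.82 ± 0.076 in Rb null cells (adjusted p = 6.59e-11) and -1.10 ± 0.076 in wildtype cells (adjusted p = 2e-08), a difference of -0.72 ± 0.11 (adjusted p = 0.000132). Col1a2 followed the same order of groups. It read 4481, 4587 and 4323 in cisplatin-treated Rb null, 7661, 7555 and 7475 in cisplatin-treated wildtype, 12915, 12779 and 11717 in untreated Rb null and 13704, 12556 and 13746 in untreated wildtype cells. Its responses were -1.48 ± 0.052 in Rb null and -0.82 ± 0.052 in wildtype cells, with a difference of -0.66 ± 0.074 (adjusted p = 1.03e-05). With each array centred on its median the difference for Col1a2 was -0.56 and under the 1.5-fold minimum.

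Col3a1 encodes collagen III, which forms mixed fibrils with collagen I in skin and vessel walls. It read 1387, 1906 and 1571 in cisplatin-treated Rb null cells, 4688, 5205 and 5415 in cisplatin-treated wildtype cells, 5113, 4885 and 5599 in untreated Rb null cells and 6296, 5979.5 and 6140 in untreated wildtype cells. The treated Rb null arrays stood far below the other 9, among which the treated wildtype and untreated Rb null arrays overlapped. The fall in Rb null cells was -1.68 ± 0.095 (adjusted p = 1.35e-09), and the change in wildtype cells was -0.27 ± 0.095 (adjusted p = 0.0277), under the 1.5-fold minimum. A dimmer probe set of Col3a1 gave -2.63 ± 0.11 in Rb null and -1.39 ± 0.11 in wildtype cells, both called, so the size of the wildtype change depends on the probe set. The difference between responses was called with both, at -1.42 ± 0.14 and -1.24 ± 0.15.

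Collagen V helps to start fibrils and limits their width, and its chains are encoded by Col5a1, Col5a2 and Col5a3. Col5a2, which lies next to Col3a1 on chromosome 1 in the RefSeq annotation, read 2840, 2673 and 2737 in cisplatin-treated Rb null, 5238, 5576 and 5380.5 in cisplatin-treated wildtype, 9554, 9611 and 9295 in untreated Rb null and 10228, 10343 and 10579 in untreated wildtype cells. The 4 groups did not overlap, and the responses were -1.78 ± 0.046 in Rb null and -0.94 ± 0.046 in wildtype cells, with a difference of -0.84 ± 0.066 (adjusted p = 3.4e-07). The brightest probe set of Col5a1 gave -2.88 ± 0.085 in Rb null and -2.40 ± 0.085 in wildtype cells. Its signal was 787 ± 101 in cisplatin-treated Rb null, 1483 ± 129 in cisplatin-treated wildtype, 5845 ± 199 in untreated Rb null and 7859 ± 260.0 in untreated wildtype cells. The responses of Col5a3 were close to each other, at -1.84 ± 0.077 in Rb null and -1.66 ± 0.077 in wildtype cells. Neither Col5a1 (difference -0.48 ± 0.12, adjusted p = 0.00603) nor Col5a3 (difference -0.17 ± 0.11, adjusted p = 0.235) was called for a genotype difference in response with its brightest probe set, and the dimmest of Col5a1 gave -1.33 and was called.

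Col11a1 encodes a chain of collagen XI, a minor fibrillar collagen best known from cartilage. It read 153, 139 and 139 in cisplatin-treated Rb null cells, 518, 571 and 527 in cisplatin-treated wildtype cells, 1525, 1439 and 1469 in untreated Rb null cells and 1858, 1813 and 1802 in untreated wildtype cells. No 2 of the 4 groups overlapped. The fall was -3.27 ± 0.073 in Rb null cells (9.66-fold) and -1.74 ± 0.073 in wildtype cells (3.35-fold), a difference of -1.53 ± 0.10 (adjusted p = 1.01e-07). In Rb null cells this was the largest fall of the class by the brightest probe set of each gene, but dimmer probe sets of Col5a1 (-4.80), Col5a2 (-4.35) and Col11a1 itself (-4.10) fell by more.

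Col2a1, which encodes the main collagen of cartilage, was the fibrillar gene that went the other way between genotypes. It read 503, 578 and 449 in cisplatin-treated Rb null cells, 79.7, 69.7 and 21.7 in cisplatin-treated wildtype cells, 1129, 1601 and 1530.2 in untreated Rb null cells and 628, 532 and 575 in untreated wildtype cells. The treated wildtype arrays were all below the filter level of 105, untreated Rb null arrays were the highest, and the treated Rb null arrays overlapped the untreated wildtype arrays. Col2a1 was higher in Rb null than in wildtype cells both after cisplatin (3.08 ± 0.28, adjusted p = 7.53e-07) and without it (1.27 ± 0.28, adjusted p = 0.00299). It fell in both genotypes, by less in Rb null cells (-1.45 ± 0.28) than in wildtype cells (-3.26 ± 0.28), and the difference of 1.81 ± 0.40 had an adjusted p of 0.0027. Of 10 other chondrocyte markers, only Sox9 was tested, and Acan, the main cartilage proteoglycan gene, had group means of 81.7 in cisplatin-treated Rb null, 72.4 in cisplatin-treated wildtype, 163 in untreated Rb null and 123 in untreated wildtype cells. Sox9, a transcription factor that activates Col2a1 in chondrocytes, rose with cisplatin by 1.42 in Rb null and 0.97 in wildtype cells. Its means were 290 and 190 in cisplatin-treated Rb null and wildtype cells. In untreated Rb null and wildtype cells they were 102 and 92.2, both below the filter level. The part of cartilage cells in the Col2a1 signal was not tested.

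**Figure D2:**
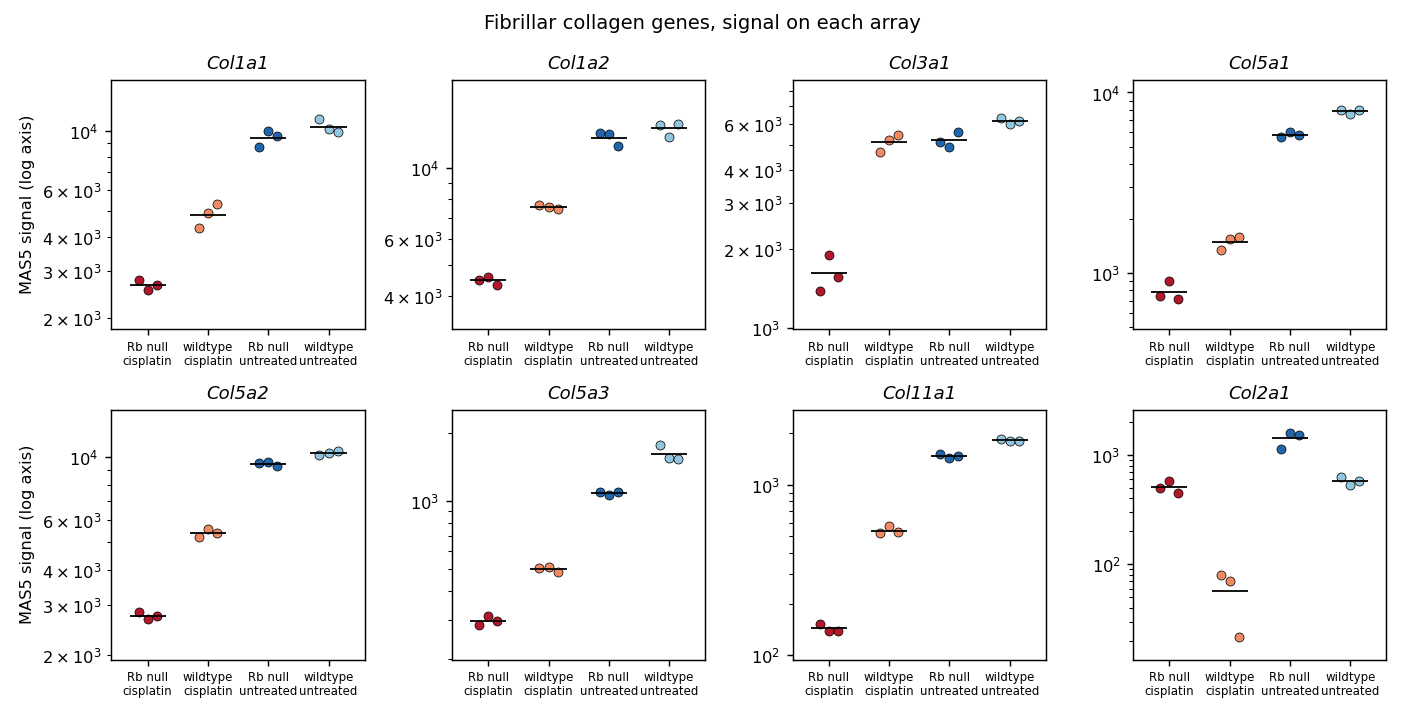
Signal (y axis, log scale) of the 8 tested fibrillar collagen genes on each array, with points for the 3 hybridizations of a group and a line at the group mean. In 7 panels the cisplatin-treated Rb null arrays are the lowest, and in the Col2a1 panel the cisplatin-treated wildtype arrays are.

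The 300-base windows around the annotated start of Col1a2 and Col3a1 are shown because their products share fibrils. The genes also had different calls in wildtype cells by their brightest probe sets. With the dimmer Col3a1 probe set both genes were called there. The windows come from RefSeq on build GRCm38.p6 and are written 5′ to 3′ on the strand of the gene. Capitals mark 3 short promoter elements on either strand: the CCAAT box (CCAAT), which the factor NF-Y binds, the GC box (GGGCGG), which Sp1 and Sp3 bind, and the TATA box (TATAAA). The Col1a2 window lies at chr6:4505368-4505667, plus strand, and the Col3a1 window at chr1:45311288-45311587, plus strand.
Col1a2: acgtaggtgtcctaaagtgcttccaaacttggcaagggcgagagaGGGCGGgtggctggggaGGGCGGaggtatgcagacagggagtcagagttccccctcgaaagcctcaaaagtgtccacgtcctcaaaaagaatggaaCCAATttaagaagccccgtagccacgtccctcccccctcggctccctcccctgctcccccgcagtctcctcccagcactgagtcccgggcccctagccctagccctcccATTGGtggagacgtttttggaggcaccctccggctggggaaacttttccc
Col3a1: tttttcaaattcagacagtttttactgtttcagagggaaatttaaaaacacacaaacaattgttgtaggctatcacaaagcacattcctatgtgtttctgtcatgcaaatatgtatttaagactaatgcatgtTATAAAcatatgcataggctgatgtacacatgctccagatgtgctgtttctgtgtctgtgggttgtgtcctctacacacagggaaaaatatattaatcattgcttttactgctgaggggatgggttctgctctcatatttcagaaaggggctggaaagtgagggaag
The Col1a2 window holds 2 CCAAT boxes, 2 GC boxes and 0 TATA boxes, and the Col3a1 window holds 1 TATA box and neither of the others. Overlapping matches would each count. Of the 32851 windows in the RefSeq table, 37.4% hold a CCAAT box, 35.7% a GC box and 13.6% a TATA box. Of the 19 tested collagen genes with a window, 11 held a CCAAT box, 14 a GC box and 2 a TATA box. A gene with more than 1 window counts here if any of them holds the element, whereas the percentages are of single windows. A match describes the letters only and says nothing of binding in these cells.

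The basement membrane class had 6 genes on the array. Col4a3 (group means of 69.1 to 111) and Col4a4 lay below the filter, and the other 4 were tested. With cisplatin 3 of 4 fell in Rb null cells (median -2.27) and 4 of 4 in wildtype cells (median -1.98). For the difference between responses limma called 0 of 4, with 2 at an unadjusted p under 0.05. Without cisplatin all 4 estimates were below 0 in Rb null cells, from -0.56 to -0.33, and 0 of 4 were called, although all 4 had an adjusted p under 0.05.

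Col4a1 and Col4a2 encode the chains of the collagen IV found in nearly every basement membrane. Col4a1 read 901, 924 and 914 in cisplatin-treated Rb null cells, 1866, 1905 and 1956 in cisplatin-treated wildtype cells, 5106, 5419 and 5095 in untreated Rb null cells and 7806, 7304 and 7856 in untreated wildtype cells. Col4a2 read 651, 598 and 659 in cisplatin-treated Rb null, 1069, 978 and 1167 in cisplatin-treated wildtype, 3420.2, 4116 and 3934 in untreated Rb null and 5019.8, 5584 and 5276 in untreated wildtype cells. Both genes had the same order of groups, with no overlap between any of them. Col4a1 fell by 5.65-fold in Rb null and 3.99-fold in wildtype cells (-2.50 ± 0.054 and -2.0 ± 0.054). Col4a2 fell by 5.92-fold in Rb null and 4.91-fold in wildtype cells (-2.57 ± 0.084 and -2.30 ± 0.084). After cisplatin both were lower in Rb null than in wildtype cells, Col4a1 by -1.06 ± 0.054 and Col4a2 by -0.74 ± 0.084 (adjusted p = 3.2e-09 and 5.62e-06).

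The starts of Col4a1 and Col4a2 are shown because the genes stand head to head on chromosome 8 and moved side by side. In RefSeq on GRCm38.p6 their transcripts run in opposite directions and overlap by 22 bases, and the windows share 78 bases. The Col4a1 window is at chr8:11312777-11313076, minus strand, and the Col4a2 window at chr8:11312555-11312854, plus strand, with the same elements in capitals.
Col4a1: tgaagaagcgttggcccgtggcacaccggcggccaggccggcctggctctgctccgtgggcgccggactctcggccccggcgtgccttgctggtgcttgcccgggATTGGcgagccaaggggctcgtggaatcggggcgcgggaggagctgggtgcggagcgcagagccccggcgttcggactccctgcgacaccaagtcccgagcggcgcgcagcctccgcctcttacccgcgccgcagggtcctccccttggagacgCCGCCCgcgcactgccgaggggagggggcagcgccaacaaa
Col4a2: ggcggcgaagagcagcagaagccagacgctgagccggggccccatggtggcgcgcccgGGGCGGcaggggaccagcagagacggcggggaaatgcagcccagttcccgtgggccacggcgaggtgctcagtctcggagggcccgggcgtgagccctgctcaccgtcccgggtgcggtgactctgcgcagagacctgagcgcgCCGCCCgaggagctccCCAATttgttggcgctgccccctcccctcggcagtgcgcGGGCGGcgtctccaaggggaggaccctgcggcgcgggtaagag
The Col4a1 window holds 1 CCAAT box and 1 GC box, the Col4a2 window 1 CCAAT box and 3 GC boxes, and both hold 0 TATA boxes. A GC box in the shared stretch is counted in both windows.

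Col4a5 and Col4a6, which encode chains of a collagen IV of more restricted tissues, are neighbours on the X chromosome. Col4a5 fell by -2.05 ± 0.094 in Rb null and -1.97 ± 0.094 in wildtype cells, with 144 ± 5.75 in cisplatin-treated Rb null, 195 ± 10.4 in cisplatin-treated wildtype, 627 ± 49.3 in untreated Rb null and 792 ± 56.6 in untreated wildtype cells. The genotype difference in response was -0.08 ± 0.13 (adjusted p = 0.676). Col4a6 was dim, at 91.7 ± 14.4 in cisplatin-treated Rb null, 90.2 ± 3.27 in cisplatin-treated wildtype, 131 ± 22.9 in untreated Rb null and 187 ± 28.0 in untreated wildtype cells, so both treated means lay below the filter level. It was called in wildtype cells (-0.96 ± 0.17, adjusted p = 0.000289) and not in Rb null cells (-0.47 ± 0.17), and the difference of 0.50 ± 0.25 was not called (adjusted p = 0.13).

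The beaded filament genes Col6a1, Col6a2 and Col6a3, which encode the chains of collagen VI, were all tested. All 3 were higher in Rb null than in wildtype cells without cisplatin and lower after it. With cisplatin 3 of 3 fell in Rb null cells (median -1.86). In wildtype cells limma called 0 of 3, with 1 at an unadjusted p under 0.05, and the estimates lay between -0.037 and 0.32. All 3 differed between genotypes in their response, by a median of -2.0.

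Col6a3 read 485, 585 and 489 in cisplatin-treated Rb null cells, 1265, 1508 and 1418 in cisplatin-treated wildtype cells, 3439.7, 3617 and 3406 in untreated Rb null cells and 1236, 1544 and 1533 in untreated wildtype cells. The 2 wildtype groups overlapped, the untreated Rb null arrays lay above them and the treated Rb null arrays below. The response was -2.73 ± 0.10 in Rb null and -0.037 ± 0.10 in wildtype cells, a difference of -2.69 ± 0.14 (adjusted p = 9.23e-09). Col6a2 read 735, 650.1 and 780.5 in cisplatin-treated Rb null, 1668, 1822 and 1789.5 in cisplatin-treated wildtype, 2619.7, 2752 and 2544 in untreated Rb null and 1653, 1574 and 1552 in untreated wildtype cells. The treated wildtype arrays lay just above the untreated wildtype arrays, and the difference of responses was -2.0 ± 0.10 (adjusted p = 9.23e-09).

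Col6a1, the neighbour of Col6a2 on chromosome 10, read 1352, 1215 and 1287 in cisplatin-treated Rb null, 2044, 2132 and 2144 in cisplatin-treated wildtype, 3066, 3011 and 2879 in untreated Rb null and 1714, 1698 and 1655 in untreated wildtype cells. No 2 groups overlapped. Without cisplatin Col6a1 was 1.76-fold higher in Rb null cells (0.82 ± 0.06), and after it 1.64-fold lower (-0.71 ± 0.06). Its wildtype estimate of 0.32 ± 0.06 had an adjusted p of 0.000429 and was under the 1.5-fold minimum. The difference of responses was -1.53 ± 0.085 (adjusted p = 1.33e-08).

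The network class had 2 genes, and they went in opposite directions with cisplatin. Col8a1, a short-chain collagen of vessel walls and the cornea, read 314, 329 and 307 in cisplatin-treated Rb null cells, 591, 574 and 592 in cisplatin-treated wildtype cells, 2699.5, 2878 and 2859 in untreated Rb null cells and 4662, 4212 and 4378 in untreated wildtype cells. It fell by 8.63-fold in Rb null and 7.43-fold in wildtype cells (-3.11 ± 0.065 and -2.89 ± 0.065), with no overlap between groups. It was also lower in Rb null cells after cisplatin (-0.87 ± 0.065) and without it (-0.65 ± 0.065, adjusted p = 2.47e-06). A dimmer probe set gave -0.18 ± 0.26 for untreated cells, which was not called.

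Col10a1, which encodes collagen X and marks hypertrophic chondrocytes, was the tested collagen gene that rose. It read 255, 218 and 216 in cisplatin-treated Rb null cells, 453, 414 and 431 in cisplatin-treated wildtype cells, 85.5, 133 and 99.8 in untreated Rb null cells and 12.3, 25.1 and 11 in untreated wildtype cells. The groups did not overlap, and the untreated wildtype arrays were near the pseudocount of 10.4, so the size of the rise in wildtype cells depends on that constant. The rise was 1.06 ± 0.20 in Rb null cells (adjusted p = 0.000363) and 4.10 ± 0.20 in wildtype cells (adjusted p = 5.64e-10). The difference of -3.04 ± 0.29 (adjusted p = 2.14e-06) combined a higher untreated level in Rb null cells (2.15 ± 0.20) with a lower treated level (-0.89 ± 0.20).

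The Col10a1 window is shown as that of the tested gene that rose. It lies at chr10:34389731-34390030, plus strand in GRCm38.p6.
Col10a1: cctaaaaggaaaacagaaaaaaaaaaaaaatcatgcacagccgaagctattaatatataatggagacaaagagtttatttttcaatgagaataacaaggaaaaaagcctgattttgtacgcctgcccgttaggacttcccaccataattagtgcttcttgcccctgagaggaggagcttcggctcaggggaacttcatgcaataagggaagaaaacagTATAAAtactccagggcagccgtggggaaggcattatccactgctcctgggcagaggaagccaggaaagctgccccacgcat
It holds 1 TATA box, 0 CCAAT boxes and 0 GC boxes.

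**Figure D3:**
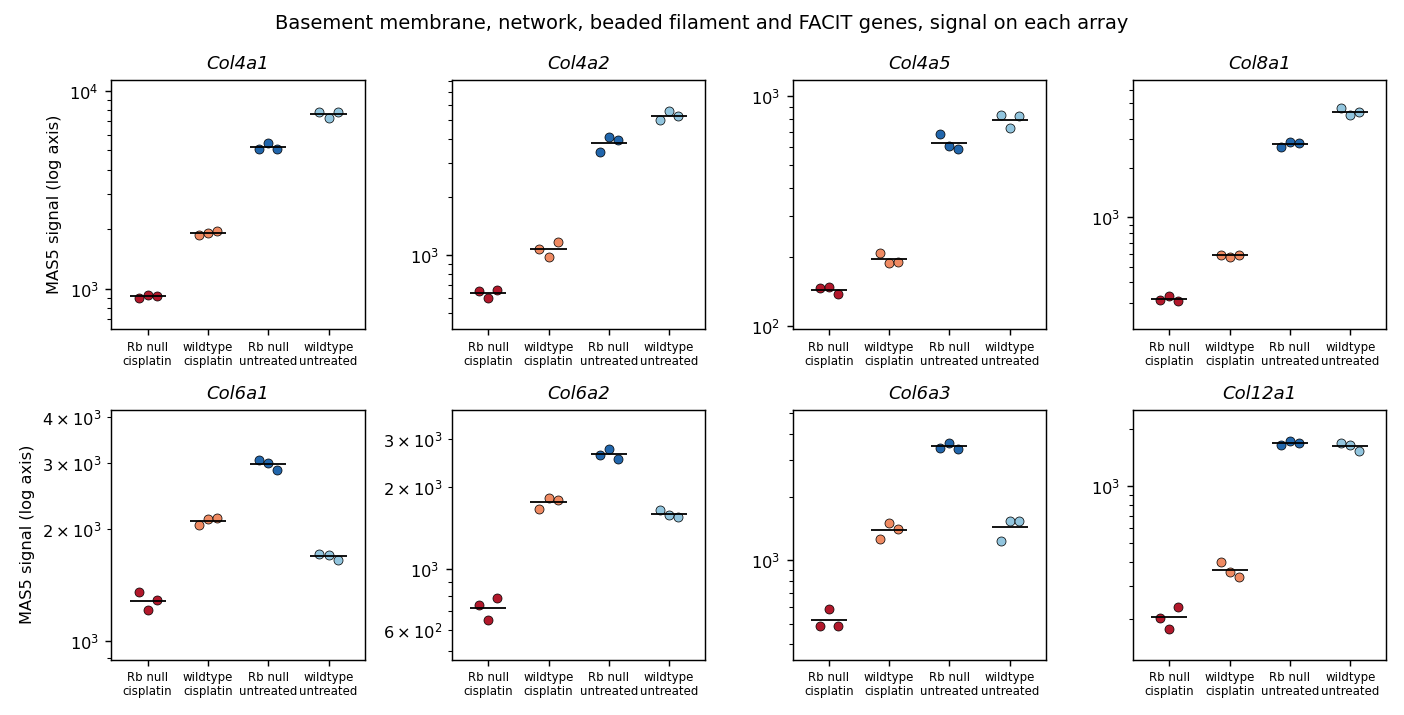
Signal (y axis, log scale) on each array for 4 basement membrane and network genes (top) and for collagen VI and Col12a1 (bottom), with points for the 3 hybridizations of a group and a line at the group mean. The cisplatin-treated Rb null arrays are lowest in all 8 panels, and untreated Rb null arrays are the highest in the 3 collagen VI panels.

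Of the 9 FACIT genes on the array, 4 were tested. Col9a2, Col9a3, Col19a1, Col20a1 and Col22a1 lay below the filter. With cisplatin 1 of 4 fell in Rb null cells and 2 of 4 in wildtype cells, against 20.3% and 12.7% of all tested genes. The Rb null count was near the share of all genes, and the class is small. Without cisplatin limma called 0 of 4 between genotypes, with 1 at an unadjusted p under 0.05.

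Col12a1, which encodes a FACIT that binds collagen I fibrils, read 202, 179 and 233 in cisplatin-treated Rb null cells, 399, 353 and 333 in cisplatin-treated wildtype cells, 1639, 1725 and 1692 in untreated Rb null cells and 1681, 1641 and 1521 in untreated wildtype cells. The untreated genotypes overlapped and the treated ones did not. Col12a1 fell by -2.99 ± 0.097 in Rb null and -2.13 ± 0.097 in wildtype cells, a difference of -0.86 ± 0.14 (adjusted p = 0.000247). Col16a1, which encodes another FACIT of fibroblasts, read 582, 597 and 525 in cisplatin-treated Rb null, 276, 249.8 and 216 in cisplatin-treated wildtype, 772, 867 and 825 in untreated Rb null and 944, 887 and 907 in untreated wildtype cells. Here the treated wildtype arrays were the lowest. Col16a1 fell in wildtype cells (-1.85 ± 0.094), its change in Rb null cells was -0.52 ± 0.094, under the 1.5-fold minimum, and the difference was 1.32 ± 0.13 (adjusted p = 3.91e-06).

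Col9a1, a chain of the FACIT of cartilage fibrils, was dim, with 221, 190.1 and 213 in cisplatin-treated Rb null, 133, 140.5 and 114 in cisplatin-treated wildtype, 199, 117 and 151 in untreated Rb null and 106, 127 and 193 in untreated wildtype cells. The treated genotypes did not overlap, and the untreated arrays of both overlapped with each other and with the treated ones. It was called higher in Rb null cells after cisplatin (0.65 ± 0.21, adjusted p = 0.0188), but the call was lost without cisplatin-treated Rb null array a (adjusted p = 0.0564) or c (0.0511) or wildtype array c (0.0684). Col14a1, a further FACIT of collagen I fibrils, had group means of 93.7 to 137 and was called in no comparison.

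Among the remaining classes, Col7a1 stood apart. It encodes the anchoring fibrils that fix skin epithelium to the dermis. It read 974, 846 and 896 in cisplatin-treated Rb null cells, 577, 667 and 577 in cisplatin-treated wildtype cells, 979.5, 1069 and 994 in untreated Rb null cells and 1958, 1848 and 1666 in untreated wildtype cells. The untreated wildtype arrays were the highest and the treated wildtype arrays the lowest. Col7a1 fell in wildtype cells (-1.57 ± 0.087), its change in Rb null cells was -0.16 ± 0.087 (adjusted p = 0.112), and the difference was 1.41 ± 0.12 (adjusted p = 9.11e-07). Without cisplatin it was lower in Rb null cells (-0.84 ± 0.087), and after it the estimate was 0.57 ± 0.087, under the 1.5-fold minimum.

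Col18a1, a basement membrane multiplexin and the source of endostatin, fell in both genotypes, by -0.80 ± 0.15 in Rb null and -1.05 ± 0.15 in wildtype cells. Its level was 431 ± 50.5 in cisplatin-treated Rb null, 329 ± 33.1 in cisplatin-treated wildtype, 767 ± 161 in untreated Rb null and 693 ± 102 in untreated wildtype cells. Col25a1, a transmembrane collagen, had group means of 141 to 159.5 and was called in no comparison. The multiplexin gene Col15a1 (28.1 to 143), the transmembrane genes Col13a1 and Col17a1, and Col26a1 lay below the filter.

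**Figure D4:**
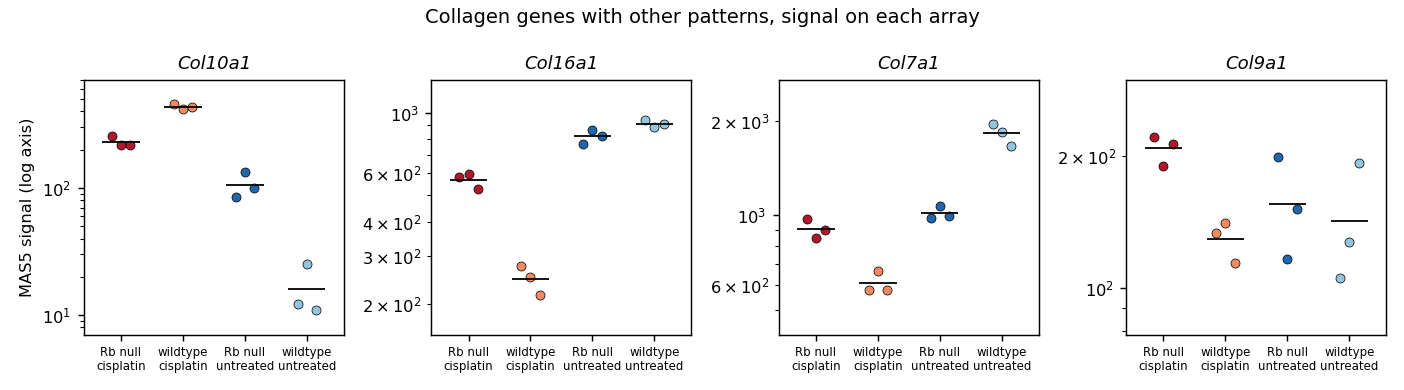
Signal (y axis, log scale) on each array for Col10a1, Col16a1, Col7a1 and Col9a1, with points for the 3 hybridizations of a group and a line at the group mean. Cisplatin-treated wildtype arrays are the highest for Col10a1 and the lowest for Col16a1 and Col7a1, and for Col9a1 the untreated groups overlap.

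Of the 36 genes, 19 had more than 1 probe set, and for 11 more than 1 was tested. Probe sets of the same gene had cisplatin changes of the same sign, but of different size. In Rb null cells 0 of 11 genes had 1 probe set called and another not, in wildtype cells 1 of 11, Col3a1 as given above. The widest gap was that of Col5a2. Its bright probe set gave -1.78 ± 0.046 in Rb null and -0.94 ± 0.046 in wildtype cells, and its dim probe set gave -4.35 ± 0.099 and -3.23 ± 0.099. The dim Col5a2 probe set read 122 ± 7.93 in cisplatin-treated Rb null, 362 ± 14.5 in cisplatin-treated wildtype, 2704 ± 346 in untreated Rb null and 3503 ± 332 in untreated wildtype cells. The dimmest probe set of a gene showed a lower log2 change than the brightest for 9 of 11 genes in Rb null and 10 of 11 in wildtype cells. The highest signal in the table was 17523, and how signals near it relate to RNA amount was not tested. Within each genotype the tested probe sets of a gene agreed in the sign of the change for all 11 genes.

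Between genotypes, probe sets of the same gene also disagreed in their calls. Without cisplatin they did so for 3 of 11 genes: Col4a1 (-0.56 not called and -0.60 called), Col6a2 (0.72 called and 0.55 not called) and Col8a1. After cisplatin they did so for Col4a5 (-0.41 not called and -0.68 called). For the difference of responses they did so for Col5a1 and Col8a1. The 3 probe sets of Col5a1 gave differences of -0.48, -0.31 and -1.33, of which the last was called, and those of Col8a1 gave -0.22 and -1.65, of which the second was called. Opposite signs occurred for Col1a1 without cisplatin (-0.14 and 0.37) and for Col18a1 in the difference of responses, with no probe set called.

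**Figure D5:**
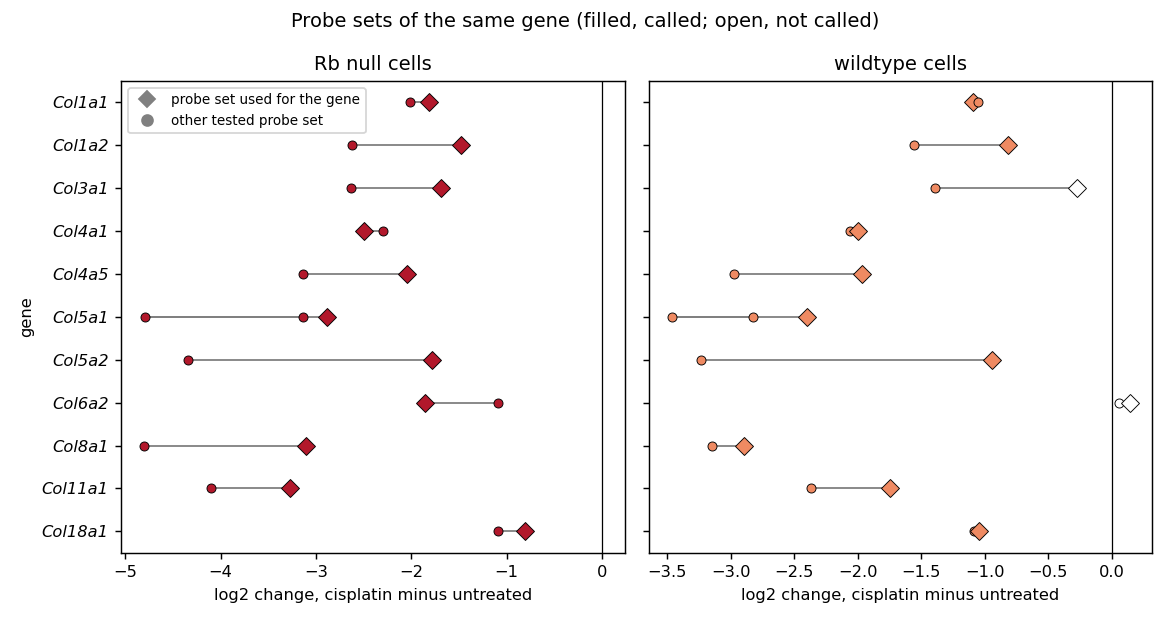
Log2 change, cisplatin minus untreated (x axis), of each tested probe set of the 11 genes with more than 1 (y axis), in Rb null cells (left) and wildtype cells (right). Diamonds mark the probe set used for the gene, circles the others, and open symbols those not called; all values lie below 0 except those of Col6a2 in wildtype cells.

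Among the genes that modify, export, process and crosslink collagen chains, all those that passed the test with cisplatin fell. The counts below stand against the shares of all tested genes given above, 20.3% lower and 16.6% higher in Rb null and 12.7% lower and 14.8% higher in wildtype cells, and the lists are short. Of 13 tested modification and folding genes, 5 fell in Rb null cells and 5 in wildtype cells, and 0 rose in either, with medians of -0.51 and -0.48. The 5 were the same in both: P4ha1 and P4ha2, catalytic subunits of prolyl 4-hydroxylase, Plod1, a lysyl hydroxylase, and P3h1 and P3h4 of the prolyl 3-hydroxylase family. P4ha1 averaged 710.4 ± 20.1 in cisplatin-treated Rb null, 822 ± 14.6 in cisplatin-treated wildtype, 1177 ± 32.5 in untreated Rb null and 1732 ± 190.3 in untreated wildtype cells. P3h1 changed by -0.99 ± 0.097 in Rb null and -1.41 ± 0.097 in wildtype cells. The difference of responses was higher for Plod2 (0.78 ± 0.097) and lower for Colgalt1 (-0.66 ± 0.13), a collagen galactosyltransferase.

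Of 8 tested export genes, 2 fell in Rb null and 3 in wildtype cells, and 0 rose, with medians of -0.34 and -0.51. The Rb null count was near the share of all genes. Sec24d, a coat protein of the vesicles that leave the endoplasmic reticulum, fell by -1.75 ± 0.092 in Rb null and -0.90 ± 0.092 in wildtype cells, a difference of -0.85 ± 0.13 (adjusted p = 0.000175). Sec23a fell in both genotypes and Mia3, a receptor that loads procollagen into vesicles, in wildtype cells (-0.61 ± 0.082). Of 5 tested processing genes, 1 fell in Rb null, near the share of all genes, and 3 in wildtype cells, with medians of -0.40 and -0.99. Tll1, a protease that removes procollagen C-propeptides, averaged 97.1 ± 5.35 in cisplatin-treated Rb null, 285 ± 27.7 in cisplatin-treated wildtype, 1668 ± 377 in untreated Rb null and 1702 ± 207 in untreated wildtype cells. Its mean in cisplatin-treated Rb null cells lay below the filter level. Bmp1 (-0.99 ± 0.065) and Pcolce2 (-1.55 ± 0.078) fell in wildtype cells. Of 4 crosslinking genes, Loxl1 (-0.94 ± 0.053) and Loxl3 (-2.36 ± 0.10) fell in Rb null cells and Loxl3 (-0.75 ± 0.10) in wildtype cells. The list's medians were -0.74 in Rb null and -0.56 in wildtype cells. These genes encode lysyl oxidases, which start the crosslinks between fibril chains. The difference of responses was lower for Tll1 (-1.41 ± 0.21) and Loxl3 (-1.61 ± 0.14) and higher for Bmp1 (0.62 ± 0.092) and Pcolce2 (1.01 ± 0.11).

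Collagen receptors and collagenases went both ways. Of 5 tested receptors, 2 rose and 3 fell in Rb null cells, and 4 fell and 0 rose in wildtype cells, with medians of -0.98 and -0.87. Ddr2, a receptor kinase for fibrillar collagen, averaged 192 ± 10.9 in cisplatin-treated Rb null, 484 ± 26.5 in cisplatin-treated wildtype, 891 ± 20.6 in untreated Rb null and 891 ± 18.3 in untreated wildtype cells, and its responses differed by -1.29 ± 0.11. Ddr1 rose in Rb null cells (0.82 ± 0.11) and fell in wildtype cells (-0.68 ± 0.11), a difference of 1.5 ± 0.16 (adjusted p = 5.33e-06). Mrc2, a receptor that takes up collagen fragments, fell by -2.56 ± 0.091 in Rb null and -1.63 ± 0.091 in wildtype cells, a difference of -0.93 ± 0.13. The integrin genes Itgb1, the common beta chain of collagen-binding integrins, and Itga2, an alpha chain, parted. Itgb1 fell in Rb null (-0.98 ± 0.078) and wildtype cells (-0.87 ± 0.078), and Itga2 rose in Rb null cells (0.65 ± 0.17). Itga2 was dim, at 164 ± 21.9 in cisplatin-treated Rb null and 97.7 ± 7.87 in cisplatin-treated wildtype cells. In untreated Rb null and wildtype cells it averaged 101 ± 16.7 and 93.5 ± 14.5. Every Itga2 mean except that of cisplatin-treated Rb null cells lay below the filter level. Of 4 tested collagenases and gelatinases, 1 rose and 2 fell in Rb null cells, and 1 rose and 1 fell in wildtype cells, with medians of -0.59 and -0.24. Mmp13, a collagenase of fibrillar collagen, rose by 2.78 ± 0.13 in Rb null and 3.85 ± 0.13 in wildtype cells, with 659.6 ± 35.6 in cisplatin-treated Rb null, 1006 ± 39.8 in cisplatin-treated wildtype, 87.0 ± 6.33 in untreated Rb null and 61.0 ± 13.2 in untreated wildtype cells. Both untreated means of Mmp13 lay below the filter level. The gelatinase gene Mmp9 fell by -1.57 ± 0.12 in Rb null and -2.42 ± 0.12 in wildtype cells, and Mmp2 fell in Rb null cells (-0.93 ± 0.083). The difference of responses was -1.06 ± 0.18 for Mmp13 and 0.85 ± 0.18 for Mmp9, and both were called.

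Of 14 tested factors known to bind collagen promoters, 4 rose and 2 fell in Rb null cells, and 3 rose and 1 fell in wildtype cells, with medians of -0.063 and 0.16. The counts that fell were below the shares of all genes and those that rose were above them, and the list is short. Nfyb, a subunit of the CCAAT-binding NF-Y, rose by 1.41 ± 0.17 in Rb null and 0.84 ± 0.17 in wildtype cells, while the subunit gene Nfyc fell in Rb null cells (-0.66 ± 0.095) and Sp3 rose there (0.72 ± 0.13). Cebpb rose in both genotypes (0.91 ± 0.094 in Rb null and 1.27 ± 0.094 in wildtype cells). Tcf4 fell in Rb null cells (-1.19 ± 0.094), and its response differed by -0.93 ± 0.13, that of Rfx5 by -0.71 ± 0.16. Creb3l1, a membrane-bound factor that activates collagen I in mouse bone, fell in wildtype cells (-0.71 ± 0.11).

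Markers of cell types moved with these groups. The summed signal of the 11 fibroblast markers on the array, all above the filter, ranged from 45101 to 45978 on cisplatin-treated Rb null arrays, 53133 to 54679 on cisplatin-treated wildtype arrays, 52024 to 55162 on untreated Rb null arrays and 51417 to 53754 on untreated wildtype arrays. The sum of the 12 macrophage markers, all above the filter, ranged from 5850 to 6068, from 11336 to 11873, from 7423 to 7642 and from 5487 to 5813 in the same order of groups. A few bright probe sets weigh most in these sums. By group mean, 7 of 11 fibroblast markers were lowest in cisplatin-treated Rb null cells, whereas Vim was highest there, at 16586 ± 513, and Thy1, S100a4 and Pdgfra were lowest in an untreated group. Of the 12 macrophage markers 8 were highest in cisplatin-treated wildtype cells, while Csf1r and Cd14 were highest in cisplatin-treated Rb null and Adgre1 and Ptprc in untreated cells. These orders of group means were not counted over all tested genes. Of the fibroblast markers, 6 of 11 were lower in Rb null than in wildtype cells after cisplatin and 0 were higher. Among macrophage markers 9 of 12 were lower in that comparison and 0 were higher. Over all tested genes 13.3% were lower and 9.67% higher. Skeletal muscle markers, with 3 of 8 above the filter, summed to 525 to 678 on cisplatin-treated Rb null arrays and 577 to 760 on cisplatin-treated wildtype arrays, against 2031 to 2140 and 3444 to 3597 on untreated Rb null and wildtype arrays. On the untreated arrays most of the sum was the actin gene Acta1, with means of 1717 in Rb null and 2784 in wildtype cells. Its means were 220 and 274 in treated Rb null and wildtype cells. Epithelial markers, with 3 of 10 above the filter, summed to 1699 to 1916 and 1486 to 1703 on treated Rb null and wildtype arrays, against 624 to 833 and 792 to 1128 on untreated ones. Neural and glial markers, with 4 of 7 above the filter, summed to 2047 to 2638 and 1469 to 1926 on treated Rb null and wildtype arrays, against 2379 to 2782 and 4182 to 4497 on untreated ones. The endothelial, chondrocyte and osteoblast sums overlapped between at least 1 treated and 1 untreated group and stayed at or under 925. The part of these shifts in the collagen results was not tested. The ratio of 3′ to 5′ signal of actin, a sign of RNA integrity, was 1.19 to 1.32 and 1.20 to 1.25 on cisplatin-treated Rb null and wildtype arrays, against 1.10 to 1.23 and 1.12 to 1.17 on untreated Rb null and wildtype arrays. The same ratio of Gapdh was 0.80 to 0.88 and 0.78 to 0.87 on treated Rb null and wildtype arrays. On untreated Rb null and wildtype arrays it was 0.76 to 0.78 and 0.78 to 0.80, so that the Rb null ranges did not overlap.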

How the data were processed

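The authors deposited 1 signal intensity per probe set and array, made with MAS5 per the submitters' processing notes; its version and detection calls are not given in the sources used here. Trimmed of 2% at both ends, the arrays had means of 500.1 to 500.2 and were used as scaled. No 2 arrays were identical. Each RNA sample entered as 6 µg.

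The value tested was log2 of the signal plus 10.4 (the 10th percentile of the table), which understates changes of dim genes. From 22690 probe sets, 64 controls were left out, and then the 40% with the lowest mean log2 signal (a level of about 105), which left 13575. Of all probe sets, 20393 had 1 gene symbol, 691 several and 1555 no entry in the platform annotation. A gene was counted by 1 probe set: those with a cross-hybridization suffix only where a gene had no other, then the brightest.

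The 4 group means were estimated from all 12 arrays by limma 3.58.1 under R 4.3.3 (lmFit and eBayes with trend, 8 residual and 6.09 prior degrees of freedom), two-sided, in 5 contrasts. The fit was tested on simulated data. The labels number the untreated and letter the treated hybridizations. Deviations of same-labelled arrays correlated at -0.19 to 0.11 (6 pairs) and those of other pairs at -0.21 to 0.30 (12 pairs), so no pairing was used. Every called collagen gene is named. Of the pathway lists, up to 4 called members per list and cisplatin contrast by size were named, and others where they complete a count, chosen after their values were seen. The members, classes, marker and pathway lists were chosen with earlier results of these data known. Promoter windows came from RefSeq, GRCm38.p6, which had entries for 27 of the 36 genes, and neighbouring genes from its annotation. Pseudocount, filter, normalization, fold minimum, probe set choice, groups in the fit, replicate block and single arrays were varied. The dimmest probe set and a fit without untreated wildtype arrays were added after seeing the data.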

Additional observations from a re-analysis of the deposited data

Results flagged for a closer look

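Several collagen genes differed between genotypes in their cisplatin response by limma's test of the difference itself (Rb null minus wildtype, log2 scale). Those with a lower response in Rb null cells were Col10a1 (-3.04), Col6a3 (-2.69), Col6a2 (-2.0), Col11a1 (-1.53), Col6a1 (-1.53), Col3a1 (-1.42), Col12a1 (-0.86), Col5a2 (-0.84), Col1a1 (-0.72) and Col1a2 (-0.66). Those with a higher response were Col2a1 (1.81), Col7a1 (1.41) and Col16a1 (1.32). The size of the Col10a1 value depends on the pseudocount, since its untreated wildtype arrays (12.3, 25.1 and 11) lay near that constant of 10.4. The untreated wildtype arrays, which enter each of these values, also differed in sex-linked transcripts, and the part of that in the differences was not tested.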

How the results depend on the processing

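The counts of called collagen genes moved by over 1.5 times under these settings. With no filter on low signal 36 genes were tested, and 5 were higher in Rb null cells after cisplatin and 2 rose in Rb null cells. The gene that rose there besides Col10a1 was Col9a3 (1.40), which lay below the filter. With the lowest 60% left out 19 were tested, Col10a1 was not among them, and 0 rose in Rb null and 0 in wildtype cells. With median centring 4 were lower in untreated Rb null cells, where Col4a1 (-0.59) and Col5a3 (-0.60) were added. Over all genes this centring put 58% of calls in the Rb null response and 51.3% in the difference of responses higher, against 44.9% and 36.7% as scaled. With no fold minimum 10 were lower in untreated Rb null cells, 5 higher in Rb null cells after cisplatin and 2 rose in wildtype cells. With a 2-fold minimum 3 were higher and 0 lower in untreated Rb null cells, 5 were lower after cisplatin and 6 had a lower response. The mean over probe sets left 1 lower in untreated Rb null cells. Without 1 array at a time, the counts higher and lower were 5 to 5 and 2 to 5 in untreated Rb null cells, 2 to 4 and 15 to 15 after cisplatin, 1 to 2 and 17 to 17 in the Rb null response, 1 to 1 and 16 to 16 in the wildtype response, and 3 to 3 and 10 to 10 in the difference. The count of 5 lower came without untreated wildtype replicate 2, which added Col4a1, Col4a6 and Col5a3, and the 2 risen in Rb null cells came without untreated Rb null replicate 1, which added Col9a1. Of 73 gene calls, compared 930 times under other settings, 903 were kept, 27 lost and 0 reversed, and without 1 array 873 of 876 were kept, the 3 lost being Col9a1. These totals overstate stability, because part of the comparisons could hardly fail. With no fold minimum no call could be lost, and leaving out an array outside the groups of a contrast did not change its estimate. Besides the 2-fold minimum, calls were lost for Col9a1 with the larger pseudocount (0.54), Col1a2 in the difference (-0.56, median centring) and Col8a1 in untreated cells (-0.41 with the mean and -0.18 with the dimmest probe set). Calls were gained for Col7a1 after cisplatin (0.60, quantile normalization; 0.64, median centring) and for Col3a1 in wildtype cells (-0.83 with the mean and -1.39 with the dimmest probe set), in the difference for Col5a1 (-0.71 and -1.33) and Col8a1 (-0.94 and -1.65), and after cisplatin for Col4a5 (-0.68 with the dimmest); those from a fold minimum, filter or single array are not all listed. Without the untreated wildtype arrays, added after seeing the data, the counts after cisplatin (3 higher, 15 lower) and in the Rb null response (1 and 17) were the same. Neither comparison uses the untreated wildtype mean, so the log2 changes could not move and only the estimate of the spread could. This fit therefore does not test the part of the sex-linked difference. With a replicate block the counts were 5 and 2, 3 and 15, and 3 and 10 for untreated cells, cisplatin-treated cells and the difference, and the shared labels do not pair the arrays. The cause of these moves was not tested, apart from the number of genes tested. A single RNA sample per group limits what the p-values cover, and without detection calls no background could be set for single probe sets.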
